A study of Mus musculus with 9 samples.

Results

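Replication-dependent histone genes encode the linker histone H1 and the core histones H2A, H2B, H3 and H4, the proteins around which newly copied DNA is wrapped. Their transcripts are made mainly during S phase and end in a stem-loop instead of a poly(A) tail. The stem-loop is bound by the protein SLBP, and transcription of the clustered genes depends on the coactivator NPAT. The histone probe sets described here are all those of the array table whose platform annotation lists histone genes alone, by current or older symbol. There were 54 such probe sets among 28853 in the table, of which 23410 list at least 1 gene.

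The 54 probe sets carry 36 distinct gene listings and name 54 histone genes. Of these probe sets, 30 list 1 gene and 24 list several. By class, 8 list H1 genes, 4 H2A, 16 H2B, 13 H3 and 12 H4, and 1 lists an H2B gene with an H1 gene (H2bc6 and H1f4). All 54 genes matched the RefSeq gene table (assembly GRCm38.p6), with 45 on chromosome 13, 6 on chromosome 3, 2 on chromosome 6 and 1 on chromosome 15. Membership of 7 H2B probe sets rests on an older symbol, since their listings include H4bc24, an entry whose older name in RefSeq is Hist1h2br. Counted by current symbols alone, there are 47 probe sets and 34 listings. The H1f prefix also takes in genes that are not replication-dependent: the replication-independent H1f10 and the germ-line linker histones H1f6, H1f7 and H1f8. H2ac1 and H2bc1 are testis histones.

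NIH-3T3 is an established mouse embryonic fibroblast line. The 3 groups were cells given a mimic of miR-378-3p, which adds to that microRNA, cells given an inhibitor of miR-378-3p, which blocks it, and cells given a RISC-free siRNA, a control RNA. Each group had 3 arrays, the RNA was delivered with DharmaFECT 1 at 25 nM in every group, and total RNA was taken 48 h later. No cells without a transfected RNA were included, and the labels do not say whether the 3 samples of a group came from separate cultures, so the p-values speak only of the spread among these arrays, some or all of which may be technical.

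Each probe set has 1 log2 value per array, made by the authors with RMA (robust multi-array average) and then deposited. The medians of the 9 arrays lay between 3.94 and 4.03 and the values between 2.64 and 12.5. Their upper quartiles lay between 5.55 and 5.76, so the deposited values were less even between arrays above the median. The number of arrays limits the precision. Of the fibroblast markers, 11 of 12 were above the level filter, with means of 3.24 to 11.2 over the 12, and the means of macrophage, epithelial, endothelial and muscle markers lay between 3.46 and 4.73. Of those other markers, 2 of 4 macrophage, 2 of 4 epithelial, 1 of 3 endothelial and 2 of 4 muscle ones were also above the filter. Probe sets were tested with limma when they list a gene and average at least 3.85, the 40th percentile, which left 14046. In the text, rose and fell are used where limma's Benjamini-Hochberg adjusted p over these 14046 was below 0.05.

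Arrays of the transfected groups did not all lie together. On the first principal component, which held 59.5% of the variance, mimic 3 was at -22.4 and inhibitor 1 at 22.4, while mimic 1 and 2 were at -9.31 and -3.89, inhibitor 2 and 3 at 10.3 and 14.4, and the controls between -4.69 and -2.97. For histone probe sets, values from the fit without mimic 3 stand beside those of all arrays where a call turned on that array. Of the 9 fits that each lacked 1 array, that one gave the most histone calls with the mimic and with the inhibitor.

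The level filter kept 47 of the 54 histone probe sets, in 29 listings. The other 7 (H1f3, H1f8, H2ac8, H2bc8, H2bc21, H3c15 and H3c7) had means of 3.40 to 3.85, and their log2 differences lay between -0.15 and 0.02 for mimic minus control and between -0.07 and 0.06 for inhibitor minus control. The probe sets are not independent of one another. The 12 genes H3c1, H3c2, H3c3, H3c4, H3c6, H3c7, H3c8, H3c10, H3c11, H3c13, H3c14 and H3c15 are listed together on 10 probe sets. The 11 genes H4c1, H4c2, H4c3, H4c4, H4c6, H4c8, H4c9, H4c11, H4c12, H4c17 and H4c18 share 5 probe sets. The H2B genes are listed as a set of 14 on 3 probe sets and as a set of 15, with H2bc1 added, on 4. Histone genes of 1 class are nearly alike in coding sequence, so these probe sets cannot say which gene of a listing a signal came from. Values were identical on all 9 arrays for 1 pair of H4 probe sets and for 1 pair of H2B probe sets, so 52 distinct sets of values stand behind the 54.

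The sequence just before the gene start is shown for 5 genes whose own probe sets are described in the results, chosen with their values known: 3 H1 genes with different values, the H2B gene with the lowest mimic difference, and H4c4, the single-gene H4 probe set with the lowest mimic difference. Each is the 150 bases that end just before the RefSeq start, 5′ to 3′ on the gene's strand, in GRCm38.p6. Capitals mark 5 motifs on either strand. Of these, CCAAT is the site of the general factor NF-Y. The TATA box is searched as TATAAA. The H1 box, a motif of linker histone promoters, is AAACACA. The octamer known from H2B promoters and bound by Oct-1 is ATTTGCAT. The letters GGTCC occur within a human H4 promoter element bound by HINFP.
H1f5, chr13:21780626-21780775, minus strand: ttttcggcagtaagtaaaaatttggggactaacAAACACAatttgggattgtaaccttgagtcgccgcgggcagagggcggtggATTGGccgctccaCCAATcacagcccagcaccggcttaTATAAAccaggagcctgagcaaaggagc
H1f1, chr13:23763518-23763667, plus strand: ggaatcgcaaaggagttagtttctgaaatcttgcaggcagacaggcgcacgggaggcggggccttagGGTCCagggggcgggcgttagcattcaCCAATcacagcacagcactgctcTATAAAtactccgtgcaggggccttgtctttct
H1f2, chr13:23738657-23738806, plus strand: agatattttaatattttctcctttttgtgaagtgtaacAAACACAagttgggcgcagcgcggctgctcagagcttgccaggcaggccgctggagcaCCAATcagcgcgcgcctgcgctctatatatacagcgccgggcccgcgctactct
H2bc14, chr13:21721894-21722043, plus strand: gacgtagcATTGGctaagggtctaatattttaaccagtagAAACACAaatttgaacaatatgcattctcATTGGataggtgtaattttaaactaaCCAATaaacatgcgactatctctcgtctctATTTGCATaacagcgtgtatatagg
H4c4, chr13:23581418-23581567, plus strand: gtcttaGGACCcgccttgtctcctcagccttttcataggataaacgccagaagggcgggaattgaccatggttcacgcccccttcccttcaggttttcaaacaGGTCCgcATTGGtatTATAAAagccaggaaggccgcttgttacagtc

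RefSeq windows were found for 49 of the 54 genes, and both strands of the 250 bases before each start were searched for the 5 motifs. AAACACA was in 5 of 9 H1, 2 of 4 H2A and 2 of 15 H2B windows and in 0 of 10 H3 and 0 of 11 H4 windows, against 6.25% of all 32851 windows of the table. In H1f5 it began 117 bases and in H1f2 112 bases before the start. ATTTGCAT was in 6 of 15 H2B and 3 of 4 H2A windows, against 1.6% of all windows. GGTCC was in 10 of 11 H4 windows, against 39.8%. CCAAT was in 15 of 15 H2B, 4 of 4 H2A, 8 of 10 H3, 7 of 9 H1 and 3 of 11 H4 windows, against 33.8%. TATAAA was in 3 of 4 H2A, 6 of 11 H4, 7 of 15 H2B, 4 of 9 H1 and 4 of 10 H3 windows, against 12.4%. A match is a stretch of letters and not a shown binding site. In the 150 bases shown, H1f5, H1f2 and the H2B gene H2bc14 have the letters of the H1 box, and H1f1 and H4c4 do not. H1f5 and H1f1 fell with the mimic and H1f2 did not. Whether these letters bear on the values was not tested.

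Most histone probe sets were lower with the mimic than with the control. Of the 47 tested, 44 had a log2 difference below 0 and 3 above, with a median of -0.28, against -0.01 over all 14046 probe sets. In limma 20 of the 47 passed, 19 of which fell and 1 rose, against 3.23% of all probe sets that passed, 2.29% that fell and 0.94% that rose. At an unadjusted p under 0.05 there were 35, against 15.7% of all probe sets. The 3 mimic arrays lay below all 3 control arrays for 34 of the 47, against 13% of all probe sets, and above them for 2, against 8.14%. Those that fell were H1f5, H1f1, the 7 H2B probe sets of 14 or 15 genes and the 10 H3 probe sets of 12 genes, and the one that rose was H2bc4. The histone probe sets had a median level of 8.76, against 5.49 over all probe sets tested, and no share at a matched level is given.

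Counted by listing, with the probe set of the highest mean for each, 5 fell and 1 rose of 29. Of the 23 probe sets that list 1 gene, 2 fell and 1 rose. Of all probe sets, 2.29% fell and 0.94% rose. The number of calls hung on single arrays. It was 31 without mimic 3, and 10 without mimic 1, 13 without mimic 2, 8, 9 and 13 without control 1, 2 and 3, and 13 without inhibitor 3, against 20 with all arrays. Over all probe sets, 135 to 673 were called in the 9 fits that each left out 1 array, against 453 with all arrays. The fits without a mimic array tested 48 histone probe sets and the others 47, and the median difference lay between -0.29 and -0.24 in the 9 fits that each left out 1 array. In the fit without mimic 3, H2ac15, H2bc3, H2bc14, H2bc18, H4c4, H4c14 and the 5 H4 probe sets of 11 genes passed with the mimic. With all arrays, or without inhibitor 1, none of them did, with limma adjusted p-values of 0.0614 to 0.342 in the latter fit.

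**Figure D1:**
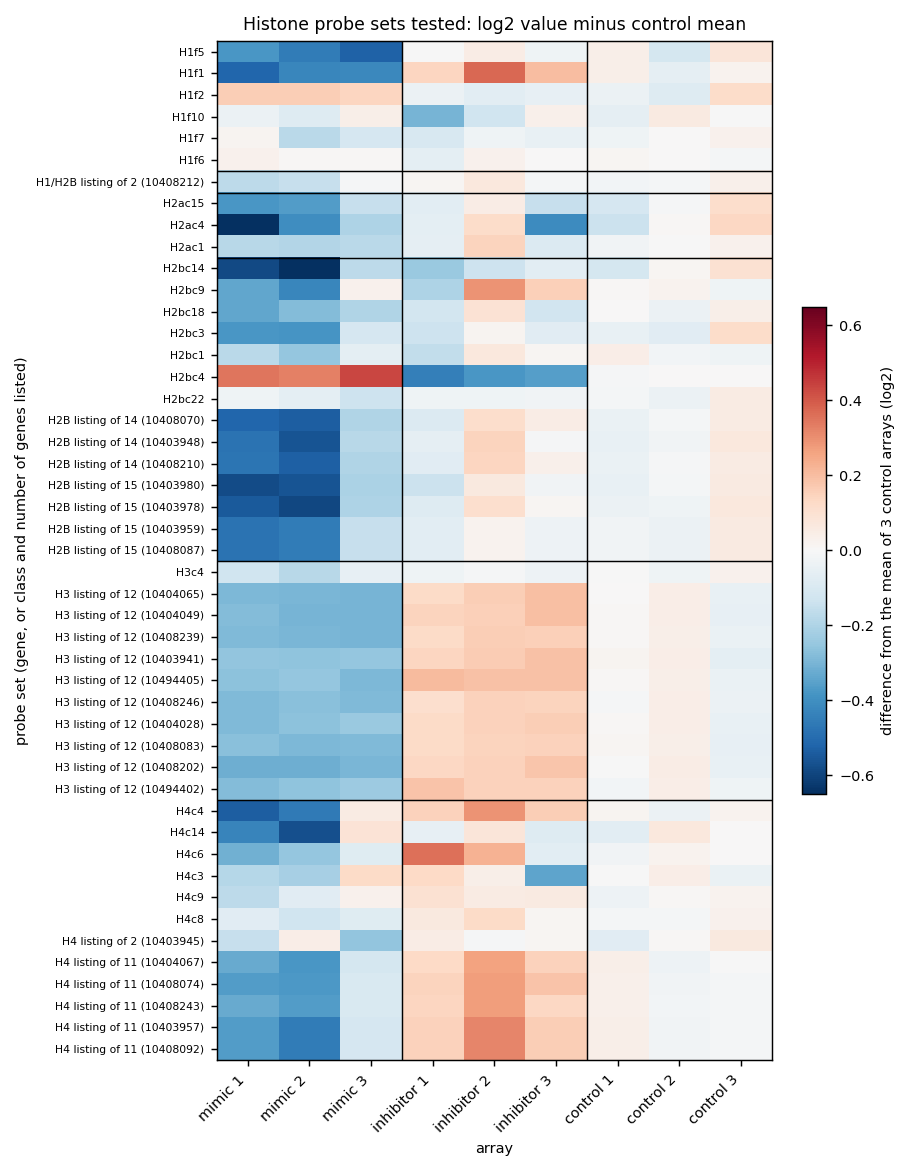
Difference of each array (columns: 3 mimic, 3 inhibitor, 3 control) from the mean of the 3 control arrays, in log2 units by colour, for the 47 histone probe sets tested (rows, grouped by class). The mimic columns are mostly blue, most faintly in mimic 3 for H2B and H4, the H3 rows of 12 genes are red in all inhibitor arrays, and H2bc4 runs the opposite way in both groups.

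Linker histones bind the DNA that enters and leaves the nucleosome. H1f5 had log2 values of 9.61, 9.54 and 9.47 with the mimic, 9.99, 10.04 and 9.97 with the inhibitor, and 10.03, 9.88 and 10.07 with the control. The mimic arrays were lower than all others, while those of inhibitor and control overlapped. H1f5 fell with the mimic by 0.45 (moderated SE 0.06, limma adjusted p = 0.00538), and the inhibitor difference was 0.01 (adjusted p = 0.96). H1f1, another somatic H1 gene, had values of 6.47, 6.56 and 6.57 with the mimic, 7.13, 7.36 and 7.19 with the inhibitor, and 7.03, 6.93 and 7.01 with the control. Its 3 groups did not overlap. H1f1 fell by 0.45 with the mimic (SE 0.07, limma adjusted p = 0.00638) and rose by 0.24 with the inhibitor (SE 0.07, adjusted p = 0.0381). The fall of both genes was called in each of the 9 fits that lacked 1 array, and the rise of H1f1 in 3 of the 9: it was lost without mimic 1, inhibitor 2, inhibitor 3 or any 1 control array.

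H1f2 did not share this direction. Its values were 5.36, 5.36 and 5.34 with the mimic, 5.16, 5.13 and 5.14 with the inhibitor, and 5.16, 5.12 and 5.32 with the control. The mimic arrays were the highest, and control 3 stood close below them. The difference from the control was 0.15 (SE 0.06, limma adjusted p = 0.203) and that from the inhibitor 0.21 (adjusted p = 0.0214). Among the H1 genes that are not replication-dependent, the mimic minus control differences were -0.03 for H1f10 (adjusted p = 0.917), -0.09 for H1f7 and 0.02 for H1f6. Over the 6 H1 probe sets tested, 2 fell and 0 rose with the mimic, against 2.29% and 0.94% of all probe sets. In limma 3 had an unadjusted p under 0.05, against 15.7%, and the median was -0.06.

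H2A and H2B pair as dimers in the nucleosome. With all arrays none of the 3 H2A probe sets tested passed in limma, and their median was -0.30. All 3 had mimic arrays below the control arrays, against 13% of all probe sets. All 3 also had an unadjusted p under 0.05, against 15.7%. H2ac15, the H2A gene with the highest mean, had values of 7.39, 7.40 and 7.61 with the mimic, 7.70, 7.81 and 7.62 with the inhibitor, and 7.66, 7.76 and 7.88 with the control. Mimic 3 came closest to the other groups. The differences from the control were -0.30 with the mimic (SE 0.08, limma adjusted p = 0.0836) and -0.06 with the inhibitor (adjusted p = 0.716). Without mimic 3 the mimic difference of H2ac15 passed, at -0.37 (adjusted p = 0.0222). For H2ac4 the mimic difference was -0.45, with an SE of 0.15 (adjusted p = 0.167), and -0.57 without mimic 3 (adjusted p = 0.0555).

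Clustered H2A genes are also listed on 2 probe sets outside the histone set, whose listings of 19 and 20 genes are mixed. Both also hold the variant H2ax, the H3 gene H3c4 and a pseudogene, and the 20-gene listing holds the variant H2aj. The 19-gene one had 9.93, 9.80 and 10.04 with the mimic, 10.27, 10.41 and 10.33 with the inhibitor, and 10.23, 10.26 and 10.23 with the control. The 20-gene one had 10.46, 10.44 and 10.50 with the mimic, 10.81, 10.93 and 10.82 with the inhibitor, and 10.77, 10.77 and 10.72 with the control. Both fell with the mimic, by 0.32 (SE 0.06, limma adjusted p = 0.027) and by 0.29 (SE 0.05, adjusted p = 0.014), with no overlap of mimic and control arrays. Their inhibitor differences were 0.10 in both, with adjusted p-values of 0.357 and 0.222.

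Of the 14 H2B probe sets tested, 7 fell and 1 rose with the mimic, against 2.29% and 0.94% of all probe sets, with a median of -0.36. The probe set of 15 H2B genes with the highest mean (10403980) had values of 9.09, 9.11 and 9.46 with the mimic, 9.53, 9.74 and 9.65 with the inhibitor, and 9.62, 9.66 and 9.73 with the control. Mimic 1 and 2 lay well below the rest and mimic 3 between them and the others. It fell by 0.45 with the mimic (SE 0.10, limma adjusted p = 0.0354), and the inhibitor difference was -0.03 (adjusted p = 0.865).

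The other H2B probe sets of many genes had the same shape. Probe set 10403978, of 15 genes, had 8.87, 8.82 and 9.21 with the mimic, 9.33, 9.52 and 9.43 with the inhibitor, and 9.37, 9.38 and 9.48 with the control. Probe set 10408070, of 14 genes, had 8.94, 8.92 and 9.26 with the mimic, 9.37, 9.57 and 9.50 with the inhibitor, and 9.41, 9.44 and 9.51 with the control. Probe set 10403948, of 14 genes, had 8.86, 8.77 and 9.16 with the mimic, 9.28, 9.48 and 9.33 with the inhibitor, and 9.29, 9.31 and 9.41 with the control. In each, mimic 3 was the highest mimic array, and inhibitor and control overlapped. All 7 such probe sets (also 10408210, 10403959 and 10408087) fell with the mimic, by 0.36 to 0.45, with adjusted p-values of 0.0354 to 0.0492. These calls lie close to the threshold: each was kept in 1 to 3 of the 9 fits that lacked 1 array. The inhibitor differences of the 7 lay between -0.03 and 0.03.

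H2B genes with a probe set of their own varied more. H2bc4 had values of 4.60, 4.58 and 4.69 with the mimic, 3.81, 3.87 and 3.89 with the inhibitor, and 4.24, 4.25 and 4.25 with the control. Its 3 groups stood apart, with the mimic highest and the inhibitor lowest. These are low signals: the inhibitor values lay at the level filter of 3.85 and below the array medians of 3.94 to 4.03. The 14-gene and 15-gene probe sets read far higher. H2bc4 rose by 0.37 with the mimic (SE 0.05, limma adjusted p = 0.00429) and fell by 0.39 with the inhibitor (SE 0.05, adjusted p = 0.000944). Both calls were kept in all 19 alternatives run for that probe set. H2bc4 is also one of the genes on the 14-gene and 15-gene probe sets, whose mimic differences were of the opposite sign.

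H2bc14 had 7.43, 7.30 and 7.85 with the mimic, 7.77, 7.88 and 7.95 with the inhibitor, and 7.90, 8.03 and 8.12 with the control. Mimic 3 lay among the inhibitor arrays and just below the lowest control. Its mimic difference, -0.49, was the lowest of the 47 but had an SE of 0.12 and did not pass (limma adjusted p = 0.0617), and it is named here after its value was seen. Without mimic 3 it was -0.65 (adjusted p = 0.00186). H2bc18 had 5.58, 5.63 and 5.72 with the mimic, 5.79, 6.01 and 5.79 with the inhibitor, and 5.91, 5.88 and 5.95 with the control, with a mimic difference of -0.27 (adjusted p = 0.0588) with all arrays and -0.31 (adjusted p = 0.035) without mimic 3. The remaining single H2B genes H2bc1, H2bc3, H2bc9 and H2bc22 had mimic differences of -0.29 to -0.07 and did not pass (adjusted p 0.0996 to 0.523), nor did the probe set of H2bc6 with H1f4 (-0.11, adjusted p = 0.379). Of these, H2bc3 passed without mimic 3, at -0.38 (adjusted p = 0.0127).

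**Figure D2:**
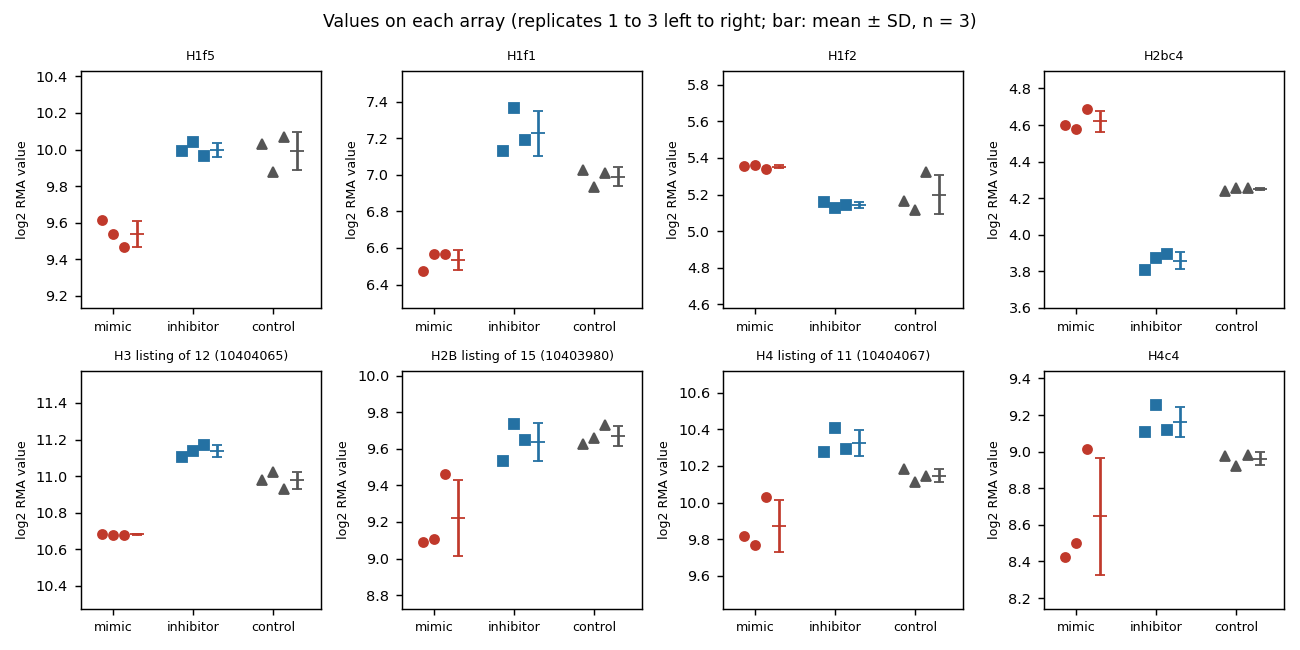
Log2 RMA value on each array for 8 histone probe sets, with the group mean and SD (n = 3 arrays per group); each panel has its own range on the vertical axis. The 3 mimic arrays lie close together for the H3 probe set, while mimic 3 stands above the other mimic arrays for the H2B and H4 probe sets, and H2bc4 is highest with the mimic and lowest with the inhibitor.

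H3 and H4 form the tetramer at the core of the nucleosome. The 10 probe sets of the 12 H3 genes all fell with the mimic, by 0.26 to 0.31, with adjusted p-values of 0.00593 to 0.0164 in limma. The one with the highest mean (10404065) had 10.69, 10.68 and 10.68 with the mimic, 11.10, 11.14 and 11.17 with the inhibitor, and 10.98, 11.02 and 10.93 with the control. The 3 groups did not overlap, and the mimic arrays, mimic 3 included, nearly coincided. It fell by 0.30 with the mimic (SE 0.04, limma adjusted p = 0.00737) and rose by 0.16 with the inhibitor (SE 0.04, adjusted p = 0.0396). The single-gene probe set H3c4 had a mimic difference of -0.12 (adjusted p = 0.231).

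All 10 H3 probe sets of 12 genes, which share 1 listing, had inhibitor arrays above the control arrays, by 0.13 to 0.19, and 7 passed. Of all probe sets, 24% had inhibitor arrays above the control arrays and 10.3% rose. The probe set with the highest rise (10494405) had 10.62, 10.64 and 10.60 with the mimic, 11.10, 11.08 and 11.08 with the inhibitor, and 10.90, 10.93 and 10.85 with the control. It rose by 0.19 with the inhibitor (SE 0.04, limma adjusted p = 0.0152). The next values show how alike these probe sets are. Probe set 10404049 had 10.67, 10.64 and 10.65 with the mimic, 11.10, 11.11 and 11.15 with the inhibitor, and 10.96, 10.99 and 10.90 with the control. Probe set 10403941 had 10.64, 10.64 and 10.65 with the mimic, 11.04, 11.06 and 11.09 with the inhibitor, and 10.92, 10.94 and 10.84 with the control. Probe set 10494402 had 10.32, 10.34 and 10.36 with the mimic, 10.79, 10.75 and 10.75 with the inhibitor, and 10.59, 10.65 and 10.57 with the control. In all of them the control arrays spread more than the mimic arrays, with control 3 the lowest control.

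These 3, with 10404065, 10408202 and 10408239, rose by 0.15 to 0.17 with the inhibitor, and probe sets 10404028, 10408083 and 10408246 did not pass, with adjusted p-values of 0.0549 to 0.0645. Without mimic 3 these last 3 passed, at 0.13 to 0.14 (adjusted p 0.0376 to 0.047). The rise of 10494405 was kept in 7 of the 9 fits that lacked 1 array, and that of the other 6 in 1 or 2.

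With all arrays none of the 12 H4 probe sets tested passed against the control in either direction. At an unadjusted p under 0.05 in limma there were 6 with the mimic and 5 with the inhibitor, against 15.7% and 29.6% of all probe sets. The 5 probe sets of 11 H4 genes nonetheless had mimic arrays below and inhibitor arrays above all control arrays. Of all probe sets, 13% had mimic arrays below and 24% inhibitor arrays above. These 5 share 1 listing, and 10403957 and 10408092 have identical values, so they are not 5 separate results. The one with the highest mean (10404067) had 9.82, 9.77 and 10.03 with the mimic, 10.28, 10.41 and 10.30 with the inhibitor, and 10.18, 10.11 and 10.15 with the control. Mimic 3 lay closer to the control than the other mimic arrays did. The differences were -0.27 with the mimic (limma adjusted p = 0.069) and 0.18 with the inhibitor (adjusted p = 0.125). Over the 5 (also 10408074, 10408243, 10403957 and 10408092), adjusted p-values were 0.069 to 0.0846 with the mimic and 0.101 to 0.127 with the inhibitor.

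These values depend on mimic 3. Without that array all 5 passed in both comparisons: the mimic differences were -0.41 to -0.35 (limma adjusted p 0.00458 to 0.00804) and the inhibitor differences, whose values stay at 0.18 to 0.21, had adjusted p-values of 0.0134 to 0.0273, at a standard error that for 10408074 was 0.05, against 0.07 with all arrays. H4c4 had 8.43, 8.50 and 9.01 with the mimic, 9.11, 9.26 and 9.12 with the inhibitor, and 8.98, 8.92 and 8.98 with the control, so that mimic 3 stood above all control arrays. Its mimic difference was -0.31 (limma adjusted p = 0.259) with all arrays and -0.50 (adjusted p = 0.00191) without mimic 3, where its inhibitor difference of 0.20 passed as well (adjusted p = 0.0212). H4c14 had 8.40, 8.25 and 8.92 with the mimic, 8.77, 8.91 and 8.74 with the inhibitor, and 8.76, 8.90 and 8.83 with the control, again with mimic 3 the highest, and its difference was -0.30 (adjusted p = 0.327) with all arrays and -0.50 (adjusted p = 0.00403) without mimic 3. The other H4 probe sets, of H4c3, H4c6, H4c8, H4c9 and of H4c11 with H4c17, had mimic differences of -0.21 to -0.07 (adjusted p 0.335 to 0.8). The single-gene H4 values are given here after they were seen.

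With the inhibitor, the histone probe sets did not shift as 1 block. Of the 47, 29 had a log2 difference above 0 and 18 below, with a median of 0.02, against 0.01 over all probe sets. In limma 9 of the 47 passed, 8 of which rose and 1 fell, against 14.7% of all probe sets that passed, 10.3% that rose and 4.36% that fell. At an unadjusted p under 0.05 there were 17, against 29.6% of all probe sets. Those that rose were the 7 H3 probe sets of 12 genes and H1f1, and the one that fell was H2bc4. Inhibitor arrays lay above all control arrays for 18 of the 47, against 24% of all probe sets, and below them for 1, against 14.6%. By listing, 2 rose and 1 fell of 29, against 10.3% and 4.36% of all probe sets. The class medians were 0.15 for H3, 0.18 for H4, -0.03 for H2B, and the differences between classes were not tested. The number of histone calls was 18 without mimic 3, 7 without mimic 2 and 2 without mimic 1. It was 3, 2 and 2 without inhibitor 1, 2 and 3, and 1, 2 and 1 without control 1, 2 and 3. Over all probe sets, 1006 to 3306 were called in these 9 fits, against 2060 with all arrays. The histone counts thus moved together with a changing number of calls in general.

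**Figure D3:**
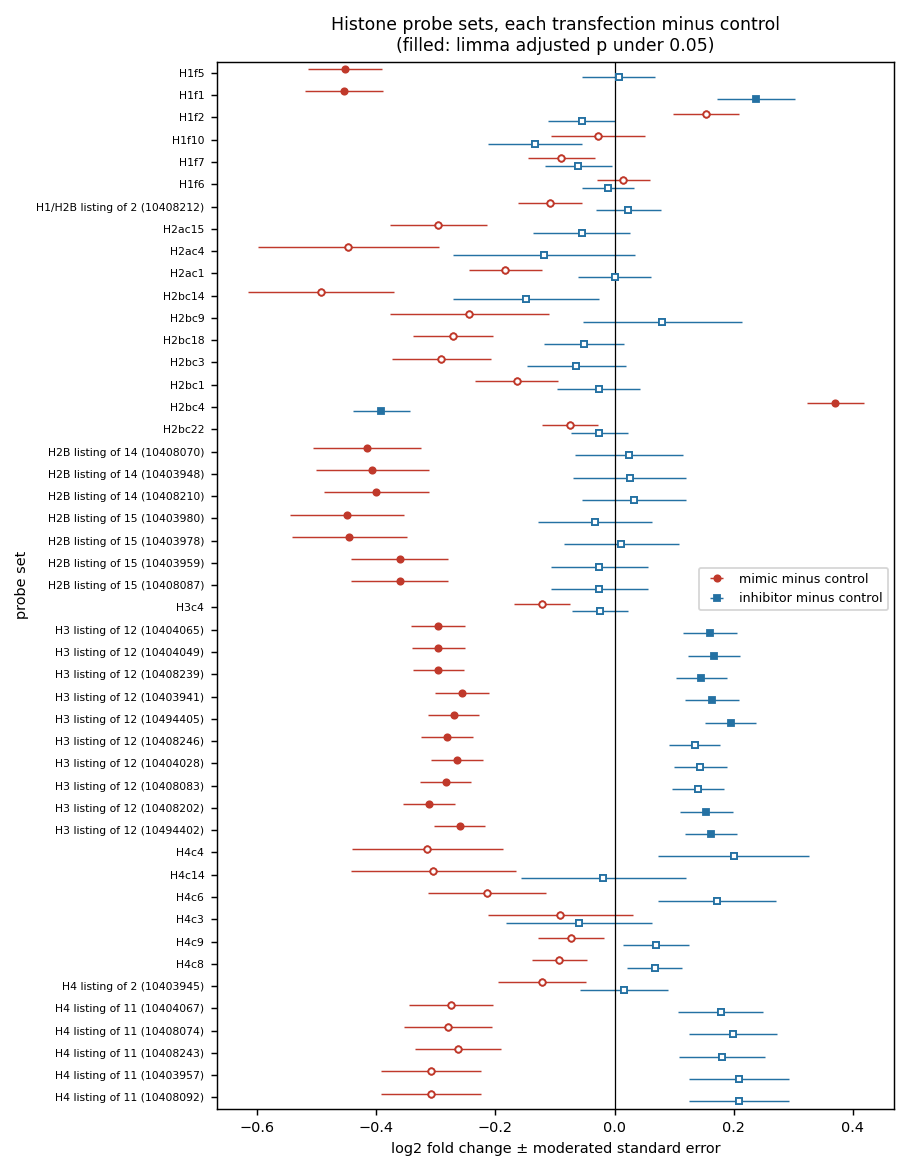
Log2 fold change with its moderated standard error for mimic minus control (red circles) and inhibitor minus control (blue squares) for the 47 histone probe sets tested; filled markers have a limma adjusted p under 0.05. The H3 probe sets of 12 genes lie left of 0 for the mimic and right of 0 for the inhibitor, the H2B probe sets of 14 or 15 genes lie left of 0 for the mimic and near 0 for the inhibitor, and H2bc4 has the reverse order.

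Both comparisons use the same 3 control arrays, and the direct comparison of mimic with inhibitor uses none of them in its difference. In that comparison 30 of 47 histone probe sets passed, 28 of which fell and 2 rose, against 26.2% of all probe sets that passed, 19% that fell and 7.19% that rose. The median was -0.39, against -0.01, and 37 had an unadjusted p under 0.05, against 38.4%. Mimic arrays lay below all inhibitor arrays for 33 of the 47, against 25% of all probe sets, and above them for 2, against 13.9%. The 2 that rose were H2bc4, by 0.76 (limma adjusted p = 2.22e-05), and H1f2, by 0.21. The calls covered all 7 H2B, all 10 H3 and all 5 H4 probe sets of many genes, with differences of -0.46 to -0.34, -0.47 to -0.41 and -0.52 to -0.44.

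Of the single-gene probe sets, H1f1 fell by 0.69 (limma adjusted p = 0.000135), H4c4 by 0.51 (adjusted p = 0.0146), H1f5 by 0.46 (adjusted p = 0.000726), H4c6 by 0.39 (adjusted p = 0.0172), H2bc18 by 0.22 (adjusted p = 0.0351) and H4c8 by 0.16 (adjusted p = 0.0289). H4c6 had 6.91, 6.97 and 7.14 with the mimic and 7.58, 7.45 and 7.16 with the inhibitor, so mimic 3 nearly met inhibitor 3. Among the 9 fits that lacked 1 array, the call of H2bc18 was kept in 3, lost without mimic 1, mimic 2, inhibitor 2 or any 1 control array. That of H4c8 was kept in 5, lost without mimic 1, mimic 2, inhibitor 1 or inhibitor 2, and that of H4c6 in 6, lost without mimic 1, inhibitor 1 or inhibitor 2. The rise of H1f2 was kept in 6, lost without mimic 1, inhibitor 2 or inhibitor 3, and the fall of H4c4 was lost without mimic 1 alone. By listing, 10 fell and 2 rose of 29, against 19% and 7.19% of all probe sets. In the fit without mimic 3, H2bc14 (-0.51), H4c14 (-0.48), H2bc9 (-0.46), H2ac4 (-0.45), H2bc3 (-0.32) and H2ac15 (-0.31) also passed. So did H4c9 (-0.19), the probe set of H2bc6 with H1f4 (-0.18) and H2bc8 (-0.18), which the filter removed with all arrays. Their limma adjusted p-values there were 0.00093 to 0.0474. Over all probe sets, 2605 to 4132 were called in the 9 fits.

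The lower and higher histone signals stood beside those of S phase genes. Of 26 S phase genes tested, 8 fell with the mimic, against 2.29% of all probe sets, and 16 rose with the inhibitor, against 10.3%, with medians of -0.21 and 0.29. In mimic against inhibitor 25 fell, against 19% of all probe sets. With 1 array left out, 3 to 8 fell with the mimic, the fewest without mimic 1, control 1 or control 2, and 10 to 20 rose with the inhibitor, the fewest without inhibitor 1, control 1 or control 3. Mcm3 and Mcm5, subunits of the replicative helicase, fell by 0.57 (limma adjusted p = 0.00684) and 0.49 (adjusted p = 0.00194) with the mimic, and the G1/S cyclin gene Ccne1 rose by 0.65 with the inhibitor (adjusted p = 0.000388). In these bulk samples, fewer cells in S phase and less histone RNA per cell cannot be told apart, and the part of S phase genes in the histone values was not tested.

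The arrays did not rank alike for both groups of genes. The median difference of S phase genes from the control mean was -0.19, -0.14 and -0.33 on mimic 1, 2 and 3, and 0.43, 0.26 and 0.27 on inhibitor 1, 2 and 3. The H4 probe sets of 11 genes had medians of -0.36, -0.38 and -0.11 on the mimic arrays and 0.15, 0.27 and 0.16 on the inhibitor arrays. The H2B probe sets of 14 or 15 genes had -0.48, -0.54 and -0.19 on the mimic arrays and -0.07, 0.11 and -0.01 on the inhibitor arrays. Mimic 3 was thus the lowest mimic array for S phase genes and the highest for H4 and H2B, while the H3 probe sets of 12 genes, at -0.28, -0.28 and -0.29, hardly differed between mimic arrays. All probe sets tested had a median of -0.05 on mimic 3.

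**Figure D4:**
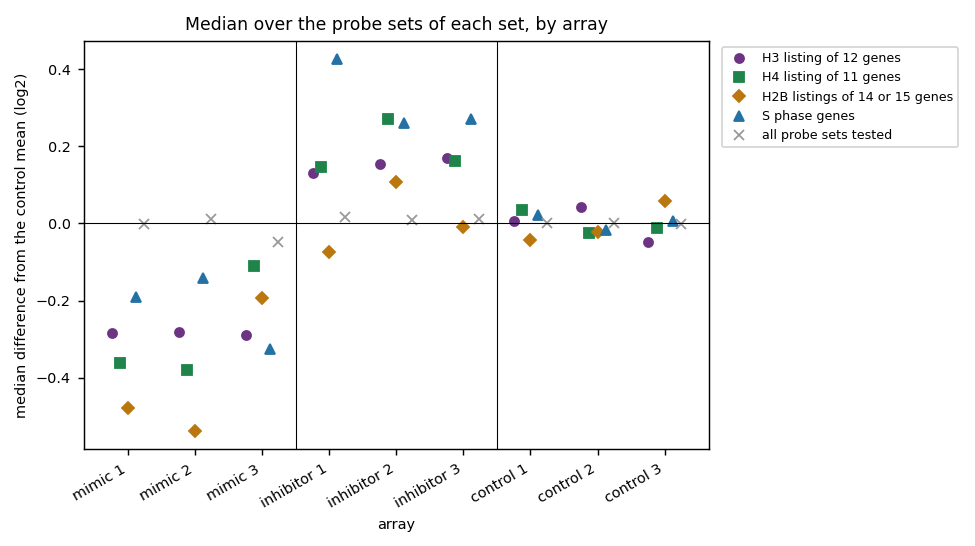
Median log2 difference from the control mean on each of the 9 arrays, over the probe sets of the H3 listing (10 probe sets), the H4 listing (5), the H2B listings (7), the S phase genes (26) and all 14046 probe sets tested. On mimic 3 the S phase median is at its lowest, -0.33, while the H4 and H2B medians are at -0.11 and -0.19, nearer to 0 than on mimic 1 and 2.

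Of 25 genes that process or degrade histone mRNA, 0 passed in limma with the mimic, against 3.23% of all probe sets, with 3 at an unadjusted p under 0.05, against 15.7%, so that their share of calls was near that of all probe sets. Their median mimic difference was -0.07 with all arrays and 0.00 without mimic 3. With the inhibitor 3 rose, against 10.3%, and 1 fell, against 4.36%, with a median of 0.11. In mimic against inhibitor 11 fell, against 19%, and 1 rose, against 7.19%, with a median of -0.19. With 1 array left out, 1 to 7 rose with the inhibitor, the most without mimic 3, and 5 to 14 fell in mimic against inhibitor, the fewest without inhibitor 1 and the most without mimic 2. Slbp, which encodes the stem-loop binding protein, had 7.62, 7.45 and 7.04 with the mimic, 7.95, 7.70 and 7.76 with the inhibitor, and 7.55, 7.56 and 7.64 with the control. Mimic 3 was far below the other mimic arrays, and mimic 1 lay among the controls. Its differences were -0.21 with the mimic (limma adjusted p = 0.482) and 0.22 with the inhibitor (adjusted p = 0.284), and -0.43 between mimic and inhibitor (adjusted p = 0.0297). Without mimic 3 they were -0.05 (adjusted p = 0.863), 0.22 (adjusted p = 0.0466) and -0.27 (adjusted p = 0.0324).

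Npat had 4.72, 4.86 and 4.66 with the mimic, 5.21, 4.93 and 4.96 with the inhibitor, and 4.90, 4.93 and 4.93 with the control, with differences of -0.17 and 0.11 from the control (limma adjusted p = 0.321 and 0.395). Casp8ap2, whose protein FLASH acts in histone pre-mRNA cleavage, differed from the control by 0.00 with the mimic and 0.17 with the inhibitor (adjusted p = 0.995 and 0.145). With the inhibitor Cpsf2, a subunit of the cleavage complex, rose by 0.47 (adjusted p = 0.009), Eri1, an exonuclease that trims the histone mRNA end, by 0.35 (adjusted p = 0.0462) and Cstf2, a 3′ processing factor, by 0.31 (adjusted p = 0.0413), and Lsm10, part of the U7 particle, fell by 0.29 (adjusted p = 0.0282).

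Histone chaperones carry newly made histones to DNA. Of 19 tested, 2 fell with the mimic, against 2.29% of all probe sets, and 5 rose with the inhibitor, against 10.3%, with medians of -0.07 and 0.15. In mimic against inhibitor 8 fell, against 19%, with a median of -0.18. With 1 array left out, 1 or 2 fell with the mimic and 2 to 9 rose with the inhibitor, the fewest without control 1 or control 2 and the most without mimic 3. Asf1b, an H3 and H4 chaperone, had 7.09, 7.19 and 7.05 with the mimic, 7.76, 7.79 and 7.87 with the inhibitor, and 7.55, 7.51 and 7.61 with the control. Its groups did not overlap, and it fell by 0.45 in mimic arrays (limma adjusted p = 0.00356) and rose by 0.25 with the inhibitor (adjusted p = 0.015). Mcm2, a helicase subunit that also binds H3 and H4, fell by 0.35 and rose by 0.45 (adjusted p = 0.0212 and 0.0023), and Chaf1b and Chaf1a, subunits of the assembly factor CAF-1, rose by 0.54 and 0.29 with the inhibitor (adjusted p = 0.0048 and 0.0405). Mcm2 is counted among the S phase genes as well.

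Histone variants are also made outside S phase. Their list holds H1f10 too, which is also counted among the histone probe sets. Of 8 tested, 1 fell with the mimic, against 2.29% of all probe sets, while with the inhibitor 2 rose, against 10.3%, and 1 fell, against 4.36%, with medians of -0.17 and -0.05. In mimic against inhibitor 4 fell, against 19%, and 1 rose, against 7.19%, with a median of -0.21. Without mimic 3, 3 fell with the mimic. Cenpa, the centromeric H3 variant, fell by 0.42 in mimic arrays (limma adjusted p = 0.00719). With the inhibitor H2afv, an H2A.Z gene, fell by 0.38 (adjusted p = 0.0117), while H2afy, which encodes macroH2A, rose by 0.28 (adjusted p = 0.0469) and H2afj by 0.25 (adjusted p = 0.0182).

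The labelling kit primes along the whole transcript and does not need a poly(A) tail, so RNAs without a tail can be measured on these arrays. Of 68 probe sets of other such RNAs, mostly small nucleolar RNAs, 0 passed in limma with the mimic, against 3.23% of all probe sets, with 7 at an unadjusted p under 0.05, against 15.7%, and a median of 0.08. With the inhibitor 6 rose, against 10.3%, with a median of 0.05. In mimic against inhibitor 12 fell, against 19%, and 1 rose, against 7.19%, with a median of 0.00. The shares called were near or below those of all probe sets. Several of the 68, such as those of the Rnu3b and Rnu1b genes, share a listing and the same differences, so they are not independent. Without mimic 3 the median with the mimic was -0.04, and with 1 array left out 1 to 9 rose with the inhibitor, the fewest without control 3 and the most without mimic 3. Their median difference on mimic 3 was 0.16, against -0.01 and -0.05 on mimic 1 and 2.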

How the data were processed

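The values the authors deposited are on the log2 scale, 1 for every probe set on every array. RMA and Partek 6.5 are named, per the submitters' processing notes. RMA subtracts background, makes the probe distributions of the arrays equal and merges the probes of a set, so a shift of most genes at once would be removed. Cells were analysed 48 h after transfection, and cDNA was made and labelled with biotin by Affymetrix whole-transcript kits, per the labels' protocols. Scanner files were not used here, and the build of the probe sets is not stated in the labels. Genes come from the platform annotation, and 0 sample columns were left unused.

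All 9 arrays entered 1 fit with a term for each group (limma 3.58.1, lmFit and eBayes, under R 4.3.3), with 6 residual and 4.01 prior degrees of freedom and a median moderated SD of 0.08. P-values were adjusted by Benjamini-Hochberg over 14046 probe sets, and each difference is the first-named group minus the second. Promoters are RefSeq's (GRCm38.p6), and plots used Python 3.11.15 and matplotlib 3.10.9. The fit was tested on simulated data.

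Members and gene lists were chosen with earlier results of these data known. Values in every array are given for the 6 strongest calls against the control in each comparison whose groups do not overlap and for the probe set with the highest mean in each class, and every member past the threshold is named. From other lists up to 4 changed genes are named, with Slbp, Npat and Casp8ap2. The alternatives covered the level filter, the probe sets per listing, normalization, moderation, the replicate number as a block, a fold of at least 1.5 and arrays left out. Counting current symbols alone, 1 of each pair with identical values, and the other gene lists with arrays left out were added after seeing the data. Same-numbered samples did not deviate together (correlations of -0.60 to 0.21).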

Additional observations from a re-analysis of the deposited data

How the results depend on the processing

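No result reversed its direction among those called. The main limma fit gave 20 histone calls with the mimic, 9 with the inhibitor and 30 between both. In that fit 35 and 17 had an unadjusted p under 0.05 against the control, with no fold required. The 3 counts became 6, 3 and 12 with the probe set of the highest mean per listing, and 6, 3 and 13 with the mean per listing. They were 3, 2 and 8 among listings of 1 gene, and 0, 0 and 2 at a fold of at least 1.5. Without mimic 3 and inhibitor 1 there were 33 with the mimic and 19 with the inhibitor. In fits of 6 arrays there were 13 and 14 against the control. With the mimic there were 13 by current symbols alone and 13 with no level filter. With the inhibitor there were 4 at the 60th percentile filter, 14 after quantile normalization and 2 with the replicate block, a fit in which the counts with the mimic and between mimic and inhibitor were 20 and 29. The median of mimic minus control, -0.28, was -0.20 with the mean per listing and -0.18 among listings of 1 gene. That of mimic minus inhibitor, -0.39, was -0.22 with the probe set of the highest mean per listing, -0.20 with the mean per listing, -0.18 among listings of 1 gene and -0.30 after quantile normalization.

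With 1 array left out, histone calls ranged from 8 to 31, 1 to 18 and 23 to 39, medians from -0.29 to -0.24, -0.02 to 0.06 and -0.44 to -0.32, and calls over all probe sets from 135 to 673, 1006 to 3306 and 2605 to 4132. Over all probe sets, the 453 calls with the mimic became 262 in the fit of 6 arrays, 301 after median centring, 779 after quantile normalization and 1069 without mimic 3 and inhibitor 1. At a fold of at least 1.5 they became 39, and the 2060 with the inhibitor and 3675 between both became 201 and 438. Quantile normalization also moved the split of rises and falls to 319 and 460 with the mimic, against 132 and 321, to 1405 and 1187 with the inhibitor, against 1447 and 613, and to 1912 and 2259 between both, against 1010 and 2665. Of the differences of single probe sets named here, 1563 values under the alternatives stayed on the same side of the threshold, 177 lost a call and 60 gained one, all with the same sign where called. Why these values changed was not tested. The same-numbered samples share only a number.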
